A study of Mus musculus with 9 samples.

Results

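By RNA sequencing, leukemic progenitors (LP) taken in the median phase from mice with PML-RAR were compared with normal hematopoietic progenitor cells (HPC), taken from wild-type mice. Both groups are named in the sample labels, and the comparison takes in 6 of the 9 libraries of the study, 3 per group, with transcripts summed by gene symbol. All mice were of the inbred strain FVB/NJ, and the cells came from bone marrow and were sorted. The HPC were taken at postnatal day 42. No age is given for the PML-RAR mice, whose LP were also sampled in an early phase, in 3 further libraries used here as another reference. The promoter that drives PML-RAR, the sorting markers and the animals behind each library were not stated in the labels, so the p-values rest on a spread between libraries that may be only technical.

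PML-RAR is the fusion of the promyelocytic leukemia protein with retinoic acid receptor alpha, made by the chromosome translocation of acute promyelocytic leukemia. The fusion binds retinoic acid response elements and recruits corepressors, and the disease is known for cells halted at the promyelocyte, the granulocyte precursor that fills the primary granules, and for a bleeding tendency. Hematopoietic progenitors as a population hold precursors of red cells, platelets, granulocytes, monocytes, basophils and lymphocytes. A lower level in the LP can come from fewer cells of a type or from less RNA per cell, and bulk RNA cannot tell these apart.

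Of 12837 genes tested, 4624 were higher in median-phase LP than in HPC, 36.0% of those tested, and 4845 were lower, 37.7%, by edgeR's quasi-likelihood test at an adjusted p under 0.05. The 3 libraries of 1 group lay wholly above or below the 3 of the other for 75.7% of the tested genes, so a single gene called, or a gene without overlap, is an ordinary event in this comparison. The median log2 difference over all tested genes was -0.036. A change of at least 4-fold was reached by 1015 genes that rose and 1216 that fell, and a change of at least 16-fold by 408 and 738. Libraries of the 2 groups held 22.98 to 26.93 M recovered fragments. HPC library 3 stood apart from the other HPC libraries: its genes in the quartile of longest transcripts, set against the quartile of shortest, had a log2 difference of -0.42 from the mean of those 2. Between the groups, the median log2 difference was 0.034 in the longest quartile and -0.099 in the shortest. Levels are counts per 1 M scaled counts (CPM) and are given for the 3 libraries of a group in replicate order. For the scaling, each library's total over tested genes was multiplied by edgeR's TMM factor. This factor was 0.97 to 0.99 in median-phase LP and 1.06 to 1.09 in HPC.

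**Figure D1:**
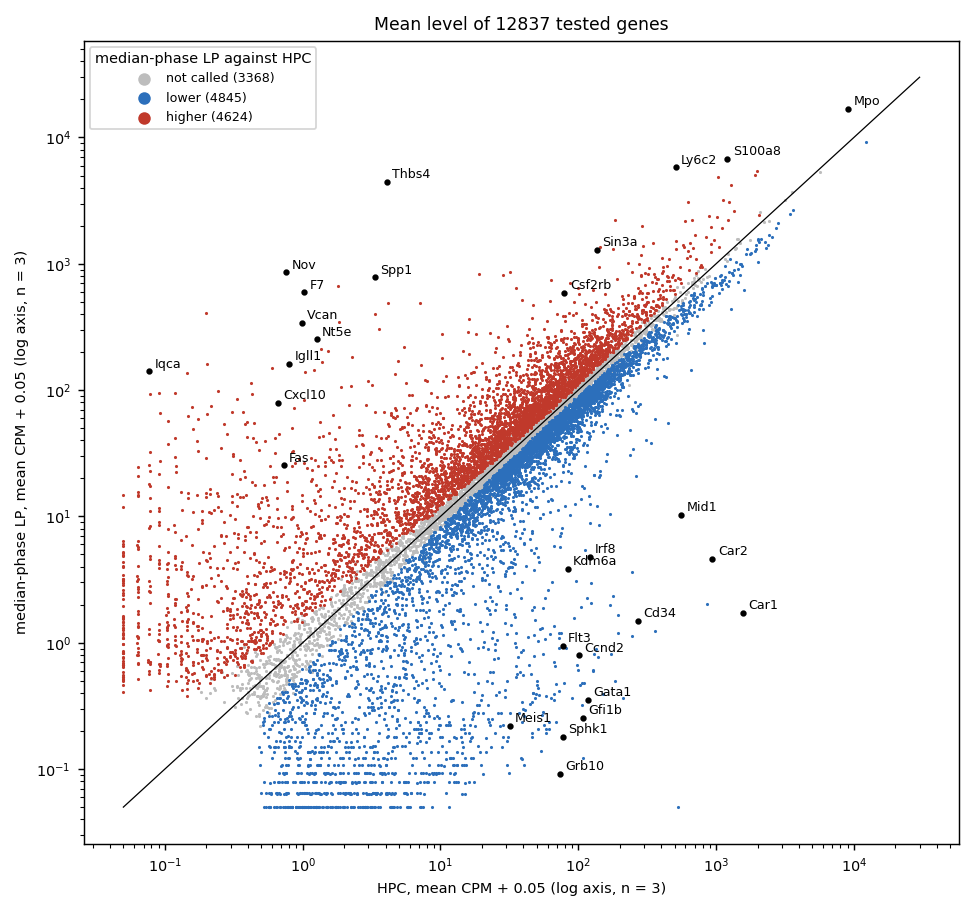
Mean CPM of each tested gene in HPC (horizontal) and median-phase LP (vertical), both on log axes after 0.05 was added, with the line of equal level. Red points (4624) passed the test as higher, blue points (4845) as lower and grey points did not pass. Thbs4, Nov and F7 lie far above the line, and Car1, Cd34 and Gata1 far below it.

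The genes were read through 39 lists of lineage, signalling and metabolic genes. The lists with the largest shares of higher members were the phagocyte oxidase (7 of 7), primary granule (17 of 20), stress response (24 of 29) and innate receptor lists (17 of 21). The lists with the largest shares of lower members were the megakaryocyte (13 of 15), red cell (24 of 29), stem cell (18 of 22), Hox (12 of 15), ribosome biogenesis (24 of 30) and dendritic cell lists (8 of 10). These shares stand against 36.0% higher and 37.7% lower among all tested genes.

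**Figure D2:**
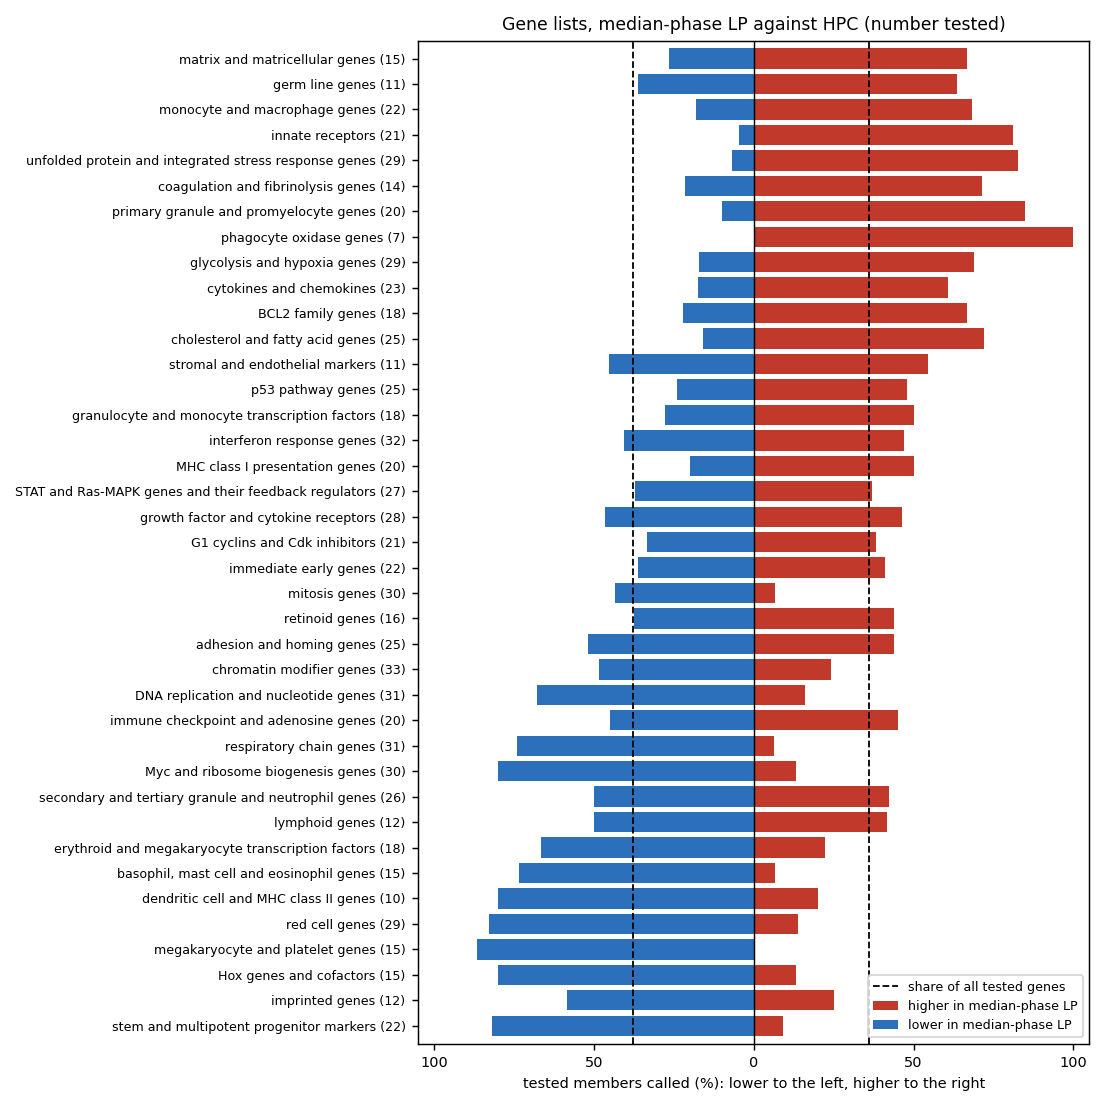
Share of the tested members of each of 39 gene lists that were higher (red, right) or lower (blue, left) in median-phase LP than in HPC, ordered by the list's median log2 difference, with the number tested in parentheses. Dashed lines mark the shares among all 12837 tested genes, 36.0% higher and 37.7% lower. The red bar of the phagocyte oxidase list reaches 100%, and the megakaryocyte list has no red bar.

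The 2 partners of the fusion were both lower in the LP. Pml, the organizer of nuclear bodies, had 61, 66.1 and 66 CPM in median-phase LP and 103, 105 and 106 CPM in HPC (log2 difference -0.703, SE 0.06, adjusted p = 6.6e-07). Rara, the receptor, had 2.65, 2.86 and 1.8 CPM in LP and 4.99, 5.4 and 5.23 CPM in HPC (log2 difference -1.09, SE 0.17, adjusted p = 1.2e-04). The groups did not overlap for either gene, and these mouse gene counts do not measure the fusion transcript. Of 16 tested retinoid genes, 7 were higher and 6 lower (median log2 difference -0.14). Rxra, the partner receptor in retinoid signalling, rose from 6.82 ± 0.522 to 48.5 ± 2.34 CPM (mean ± SD, n = 3; log2 difference 2.83, SE 0.099, adjusted p = 2.2e-10), and Rarg, a second retinoic acid receptor, rose by 1.09. Aldh1a1, which makes retinoic acid from retinal and is high in normal stem cells, had 63.1, 60.7 and 65.9 CPM in HPC and 0.248, 0.396 and 0.308 CPM in LP (log2 difference -7.62, SE 0.19, adjusted p = 1.5e-11).

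Transcription factors of granulocytes and monocytes moved in both directions. Of 18 tested factors of granulocyte and monocyte development, 9 were higher and 5 lower (median 0.25). Cebpa, which starts granulocyte differentiation, had 94.4, 87.8 and 95.9 CPM in HPC and 281, 281 and 284 CPM in LP (log2 difference 1.61, SE 0.09, adjusted p = 9.0e-09). Gfi1, a repressor that directs cells to granulocytes, had 120.4, 107 and 90.6 and 370.4, 372 and 331 CPM (log2 difference 1.75, SE 0.098, adjusted p = 1.3e-08). All 3 LP libraries lay above all HPC libraries for both genes. Cebpd rose from 24.1 ± 3.67 to 150.3 ± 12 CPM (log2 difference 2.64), and Nfil3 from 5.29 ± 0.504 to 29.3 ± 2.5 CPM (2.47). Cebpe, which drives the step after the promyelocyte, had 48, 36.6 and 48.6 CPM in HPC and 46.5, 46.9 and 45.3 CPM in LP and did not pass the test (adjusted p = 0.67); the groups overlapped. Irf8, the factor of monocyte and dendritic cell precursors, had 129.7, 105 and 128 CPM in HPC and 4.47, 5.45 and 4.31 CPM in LP (log2 difference -4.67, SE 0.12, adjusted p = 2.2e-11), with all LP libraries low. Zbtb16, which encodes PLZF, another fusion partner of the retinoic acid receptor, fell from 14.2 ± 2.63 to 0.115 ± 0.0235 CPM.

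Most regulators of the red cell and platelet lineages fell in the LP, some to below 1 CPM. Gata1, the master factor of both lineages, had 109, 111 and 130.1 CPM in HPC and 0.248, 0.308 and 0.352 CPM in LP (log2 difference -8.57, SE 0.24, adjusted p = 3.3e-11). Klf1, the red cell factor, had 118, 123 and 145 and 0.414, 0.703 and 0.571 CPM (log2 difference -7.83, SE 0.15, adjusted p = 2.6e-12), and Gfi1b, the relative of Gfi1 in red cells and megakaryocytes, had 99, 99.4 and 127 and 0.0828, 0.22 and 0.308 CPM (log2 difference -9.04, SE 0.24, adjusted p = 2.2e-11). Every LP library was below 1 CPM for these 3 genes and every HPC library above 90. Zfpm1, the cofactor of Gata1, fell by 7.81 on the log2 scale. Tal1, which acts with Gata1 but also in stem cells, fell less, from 191 ± 18.4 to 43.8 ± 2.39 CPM (log2 difference -2.13, SE 0.08, adjusted p = 3.4e-10). Fli1 and Nfe2, factors of megakaryocytes that other blood cells also express, were higher in LP, with log2 differences of 1.21 and 0.72. In all, 12 of 18 tested members of the list were lower and 4 higher (median -1.27).

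Most genes of the red cell itself fell as far, and 4 rose. Of 29 tested red cell genes, 24 were lower and 4 higher (median -5.44), and the list summed to 5439 to 5885 CPM in HPC and 606 to 725 CPM in LP. Car1, a carbonic anhydrase of red cell precursors, had 1418, 1508 and 1806 CPM in HPC and 1.57, 1.45 and 1.98 CPM in LP (log2 difference -9.88, SE 0.204, adjusted p = 4.7e-12). Aqp1, the water channel, had 809, 791 and 974 and 1.28, 2.02 and 2.64 CPM (log2 difference -8.76, SE 0.202, adjusted p = 8.0e-12), and Epor, the erythropoietin receptor, 48.2, 51.8 and 64.5 and 0.124, 0.308 and 0.22 CPM (log2 difference -7.96, SE 0.21, adjusted p = 2.2e-11). Each LP library was lower than every HPC library for these genes. Car2, Ermap and Pklr, the red cell pyruvate kinase, had log2 differences of -7.69, -8.25 and -10.45.

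The members that rose are made late in red cell maturation. Hba-a1, an alpha globin, had 36.9, 19.4 and 22.7 CPM in HPC and 137, 201 and 131 CPM in median-phase LP (log2 difference 2.57, SE 0.26, adjusted p = 2.9e-06). Hbb-b2, a beta globin, had 2.64, 0.837 and 1.64 and 29.8, 37.2 and 34.7 CPM (log2 difference 4.31, SE 0.24, adjusted p = 1.3e-08). Alas2, the red cell enzyme of haem synthesis, had 2.1, 1.34 and 2.11 and 4.97, 6.9 and 5.67 CPM (log2 difference 1.66, SE 0.204, adjusted p = 1.4e-05). All 3 LP libraries exceeded all HPC libraries for the 3 genes, while early-phase LP lay lower still, at 2.87, 5.69 and 2.71 CPM for Hba-a1 and 0.218, 0.209 and 0.167 CPM for Alas2. Slc4a1, the band 3 anion exchanger, named after its values had been seen, had 2.22, 0.126 and 0.507 and 3.19, 5.76 and 5.54 CPM (log2 difference 2.34, SE 0.56, adjusted p = 0.0024), and without HPC library 1 its log2 difference was over 1.5 times larger, at 3.90 (adjusted p = 1.7e-05). Against early-phase LP, 9 tested red cell genes were higher and 2 lower, beside 1.48% and 0.997% of all tested genes. The part of admixed red cells in these values was not tested. The 2 globins are near-identical to other copies in the genome, so their counts are uncertain.

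Promoters of red cell genes were searched for the letters that GATA factors bind, and 4 are printed because genes that hold these letters moved in both directions. The sequences are RefSeq's, from 250 bases before to 50 after the start site on GRCm38.p6, in the direction of the gene, with AGATAA or TGATAA on either strand in capitals.
Gfi1b: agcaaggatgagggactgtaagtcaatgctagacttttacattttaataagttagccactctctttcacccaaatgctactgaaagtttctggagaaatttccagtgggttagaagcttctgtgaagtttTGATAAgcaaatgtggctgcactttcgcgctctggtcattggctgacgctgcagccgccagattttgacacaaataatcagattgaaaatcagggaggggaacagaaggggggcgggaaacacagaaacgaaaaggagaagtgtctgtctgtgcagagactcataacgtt
Epor: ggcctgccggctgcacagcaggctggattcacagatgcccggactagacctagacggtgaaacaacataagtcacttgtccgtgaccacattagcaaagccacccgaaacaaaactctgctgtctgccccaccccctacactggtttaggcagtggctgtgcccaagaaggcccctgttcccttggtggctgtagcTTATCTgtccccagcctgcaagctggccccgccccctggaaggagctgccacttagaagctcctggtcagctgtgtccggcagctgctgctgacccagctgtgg
Pklr: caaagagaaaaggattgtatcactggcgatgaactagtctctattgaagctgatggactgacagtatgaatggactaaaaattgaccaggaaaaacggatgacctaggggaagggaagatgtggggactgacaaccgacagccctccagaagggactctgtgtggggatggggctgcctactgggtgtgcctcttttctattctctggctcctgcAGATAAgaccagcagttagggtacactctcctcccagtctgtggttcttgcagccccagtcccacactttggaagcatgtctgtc
Alas2: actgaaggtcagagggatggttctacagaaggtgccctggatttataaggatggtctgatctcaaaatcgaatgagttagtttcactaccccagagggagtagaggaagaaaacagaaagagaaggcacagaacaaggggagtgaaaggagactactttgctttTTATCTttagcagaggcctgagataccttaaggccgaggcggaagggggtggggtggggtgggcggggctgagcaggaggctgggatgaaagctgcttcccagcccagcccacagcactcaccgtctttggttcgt
They lie at chr2:28621933-28622232, minus strand (Gfi1b), chr9:21963527-21963826, minus strand (Epor), chr3:89135892-89136191, plus strand (Pklr) and chrX:150547167-150547466, plus strand (Alas2). Of the tested genes, 10211 had a promoter in the reference, matched by transcript accession, and 12.8% of these held at least 1 of the letters. The share was 10 of 17 for the red cell list, 6 of 14 for the red cell and megakaryocyte factors, 12.5% of all genes called higher and 13.8% of all called lower. Gfi1b, Epor and Pklr, which fell, and Alas2, which rose, each hold 1 match. A match describes the sequence and does not show binding.

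**Figure D3:**
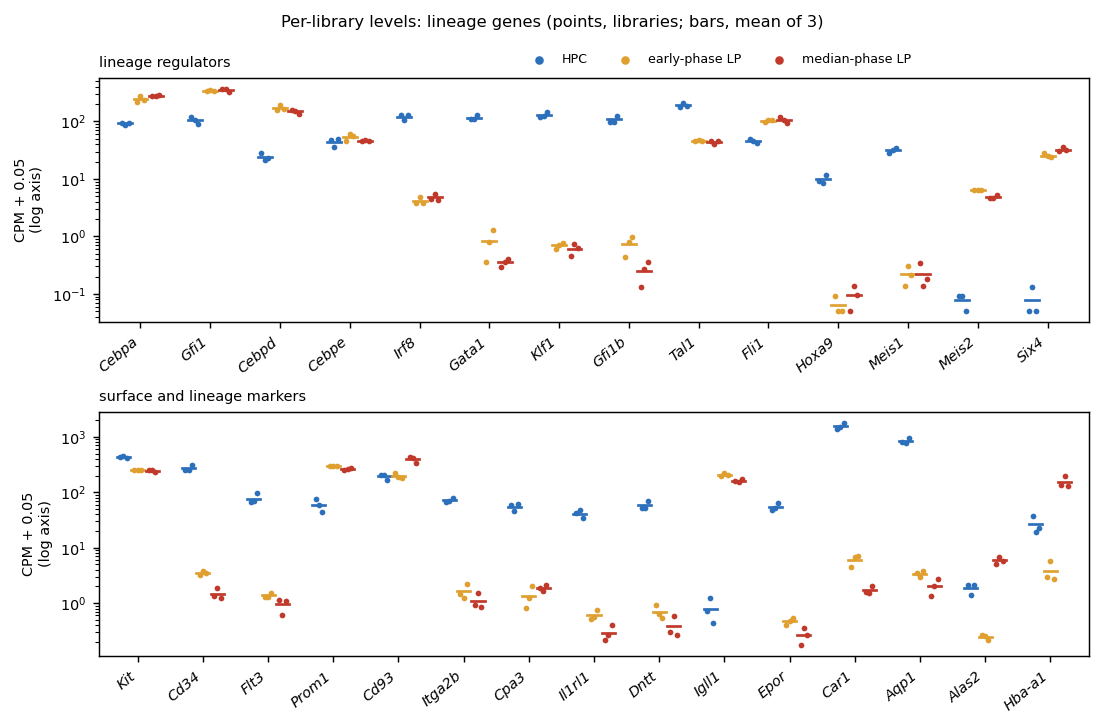
CPM of lineage regulators (top) and of surface and lineage markers (bottom) in each library of HPC (blue), early-phase LP (orange) and median-phase LP (red), on a log axis after 0.05 was added; points are libraries and short bars the mean of 3. Cebpa and Gfi1 are higher in LP, Gata1, Klf1 and Gfi1b are below 2 CPM in all LP libraries, and Hba-a1 is highest in median-phase LP.

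Most markers of stem cells and multipotent progenitors fell in the LP, Kit by less than the other members that fell and are given here. Of 22 tested members, 18 were lower and 2 higher (median -7.08). Cd34, a surface marker of early progenitors, had 249.8, 258 and 309.8 CPM in HPC and 1.32, 1.8 and 1.19 CPM in LP (log2 difference -7.56, SE 0.14, adjusted p = 3.3e-12). Flt3, the receptor of multipotent and lymphoid progenitors, had 65.6, 69.9 and 95.5 and 1.08, 0.571 and 1.05 CPM (log2 difference -6.41, SE 0.21, adjusted p = 1.1e-10). Eng, endoglin, fell by 7.98 on the log2 scale. Kit, the stem cell factor receptor, had 438, 459 and 413 CPM in HPC and 253, 251 and 237 CPM in LP (log2 difference -0.82, SE 0.06, adjusted p = 2.4e-07). The groups did not overlap for Kit, yet its difference was under 1 log2 unit. The 2 members that rose were Prom1, with 76.8, 59.4 and 44.4 and 257, 269 and 269.9 CPM (log2 difference 2.14, SE 0.15, adjusted p = 9.9e-08), and Cd93, with 207, 206 and 169 and 439.7, 423 and 344 CPM (log2 difference 1.05, SE 0.11, adjusted p = 4.7e-06). Cd93 was also higher in median- than in early-phase LP (log2 difference 1.03, adjusted p = 0.0011).

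Most Hox genes and cofactors of normal progenitors were lower in the LP, and a few other homeobox genes were higher. Of 15 tested Hox genes and cofactors, 12 were lower and 2 higher (median -6.15). Hoxa9, active in normal progenitors and in many myeloid leukemias, had 9.1, 8.54 and 11.6 CPM in HPC and 0, 0.0879 and 0.044 CPM in LP, lower by a ratio of 242-fold with an exact 95% counting interval of 82.4 to 1174. Its cofactor Meis1 had 28.2, 32.4 and 34.8 and 0.29, 0.0879 and 0.132 CPM (log2 difference -7.49, SE 0.24, adjusted p = 8.3e-11). Hoxb4 fell by 4.21 on the log2 scale. The members that rose were Meis2, with 0.0419, 0.0419 and 0 CPM in HPC and 4.68, 4.53 and 5.14 in LP, a ratio of 189-fold with an exact 95% counting interval of 51.9 to 1566, and Pbx3, by 0.896. Outside the list, Six4, a homeobox gene of muscle and organ development, was among the largest increases. Six4 had 0, 0.0837 and 0 CPM in HPC and 30.3, 35.3 and 31.7 CPM in LP, a ratio of 1277-fold with an exact 95% counting interval of 353 to 10549. All LP libraries, early phase included, were above 20 CPM for Six4 and all HPC libraries were below 0.1.

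Most of the tested platelet, basophil and dendritic cell genes were lower. Among 15 tested megakaryocyte and platelet genes, 13 were lower and none higher (median -5.76). Itga2b, the platelet integrin that binds fibrinogen, had 67.6, 68.7 and 80.2 CPM in HPC and 0.869, 1.45 and 0.791 CPM in LP (log2 difference -6.12, SE 0.19, adjusted p = 8.3e-11). Pf4, a platelet chemokine, had a log2 difference of -6.21, and Vwf, also made by endothelium, one of -1.38. Among 15 basophil, mast cell and eosinophil genes, 11 were lower and 1 higher (median -2.02). Cpa3, a mast cell protease, had 57.9, 45.1 and 62.2 and 1.86, 1.58 and 2.07 CPM (log2 difference -4.9, SE 0.21, adjusted p = 1.2e-09), and Prg2, the eosinophil major basic protein, fell by 3.51. Il1rl1, the interleukin-33 receptor, fell by 7.37. The member that rose, Mcpt8, a basophil protease, moved from 12.8 ± 1.89 to 22.1 ± 1.51 CPM (log2 difference 0.79, SE 0.11, adjusted p = 5.0e-05). Among 10 dendritic cell and MHC class II genes, 8 were lower and 2 higher (median -2.05). Zbtb46, a factor of conventional dendritic cells, was lower by a ratio of 481-fold with an exact 95% counting interval of 133 to 3973, and Cd74 and H2-Aa had log2 differences of -1.98 and -3.25.

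Lymphoid genes split. Of 12 tested, 5 were higher and 6 lower, and 12 further members were too low to test, Cd3e among them. Dntt, which adds bases at antigen receptor joints, had 52.6, 51.2 and 69.7 CPM in HPC and 0.248, 0.527 and 0.22 CPM in LP (log2 difference -7.43, SE 0.24, adjusted p = 9.4e-11), and Cd79b fell by 4.79. Igll1, the lambda 5 part of the surrogate light chain of B cell precursors, had 0.671, 1.17 and 0.39 CPM in HPC and 158, 151 and 173 CPM in LP (log2 difference 7.76, SE 0.19, adjusted p = 1.5e-11). Its partner Vpreb1 had 0.294, 0.377 and 0.507 and 5.05, 4.75 and 5.32 CPM (log2 difference 3.66, SE 0.22, adjusted p = 2.8e-08). Both surrogate light chain genes were thus higher in every LP library than in every HPC library.

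Genes of the primary granules, the mark of the promyelocyte, were read in a single list with other promyelocyte genes, and most members were higher in LP. Of 20 tested, 17 were higher and 2 lower (median 1.15), and the list summed to 41183 to 44147 CPM in LP and 17789 to 19973 CPM in HPC. Mpo, myeloperoxidase, had 9651, 8849 and 8781 CPM in HPC and 17610.2, 16521 and 16577 CPM in LP (log2 difference 0.89, SE 0.097, adjusted p = 4.9e-06). Elane, neutrophil elastase, had 2256, 1889 and 1851 and 5647, 5250.2 and 5368 CPM (log2 difference 1.44, SE 0.102, adjusted p = 1.0e-07), and Ctsg, cathepsin G, had 1115, 964 and 1005 and 5103, 4623 and 4973 CPM (log2 difference 2.25, SE 0.09, adjusted p = 7.4e-10). All LP libraries exceeded all HPC libraries for these genes. Prtn3, proteinase 3, whose gene lies beside Elane, had 1337, 1130.4 and 1125 CPM in HPC and 1085, 1056 and 993 CPM in LP and did not pass the test (adjusted p = 0.062), although it was called lower without HPC library 3 and with library totals in place of TMM, the scaling used. Hp, haptoglobin, rose by 3.58 and Dmkn by 4.46, while the members that fell were Cd63 (log2 difference -0.34) and Nkg7 (-0.28), the latter with its call lost without LP library 3 or HPC library 1.

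Genes of the secondary and tertiary granules, which are filled after the promyelocyte stage, were read in a single list with other neutrophil genes. The members of this mixed list moved in both directions. Of 26 tested, 11 were higher and 13, Chi3l3 included, lower (median -0.60), while the list summed to 3799 to 6716 CPM in HPC and 13017 to 14265 CPM in LP. Ltf, lactoferrin, had 530.1, 309.9 and 494 CPM in HPC and 55.4, 62.6 and 46.3 CPM in LP (log2 difference -3.02, SE 0.19, adjusted p = 4.1e-08). Ngp, another granule protein, had 835, 408 and 745 and 155, 159 and 120.4 CPM (log2 difference -2.2, SE 0.22, adjusted p = 2.2e-06), and Pglyrp1 fell by 2.27. Mmp9, gelatinase B of the tertiary granules, had 23.2, 14.5 and 28.7 and 7.32, 8.88 and 7.43 CPM (log2 difference -1.49, SE 0.205, adjusted p = 3.6e-05). HPC library 2 was the lowest of its group for the 3 genes given by library, and the LP libraries were lower than it. Camp, the cathelicidin, and Lcn2, lipocalin 2, did not pass the test, with 521, 218 and 386 against 271, 255 and 277 CPM and 129.9, 71.1 and 134 against 95.1, 101 and 101 CPM; without HPC library 2 both were called lower, and with library totals Camp was too. The higher members included S100a8, a calcium-binding protein of the cytosol, with 1444, 916 and 1264 CPM in HPC and 6697, 6530.05 and 7176 CPM in LP (log2 difference 2.49, SE 0.15, adjusted p = 1.8e-08), and Il1r2, the decoy receptor of interleukin 1, which rose by 6.35. The S100a8 values are a large part of the list's sums in LP given above, so those sums do not measure granule genes alone. Chi3l3, a chitinase-like protein, was listed at 0 in every median-phase LP library, at 40518, 0 and 39246 CPM in early-phase LP and at 699, 404 and 477 CPM in HPC, and its near-identical copy Chi3l4 had 351, 402 and 461, 9.23, 563 and 7.08 and 0.0839, 0.209 and 0.156 CPM in the same groups. Reads of these copies may have been assigned differently between libraries, so no direction is drawn for either.

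Most genes of the oxidative burst and of microbe sensing rose. All 7 tested oxidase genes were higher (median 1.13): Cybb, the catalytic subunit, had 165, 102 and 119.9 CPM in HPC and 247, 295 and 303 CPM in LP (log2 difference 1.13, SE 0.15, adjusted p = 3.0e-05), and the cytosolic subunit Ncf1 rose by 0.43. Hvcn1, the proton channel that balances the charge of the burst, rose by 1.94, and Gsr, glutathione reductase, rose from 288 ± 34.5 to 2009 ± 104 CPM. Of 21 innate receptors, 17 were higher and 1 lower (median 1.70). Tlr4, the endotoxin receptor, had 11.7, 11.9 and 7.61 and 116, 119 and 117 CPM (log2 difference 3.5, SE 0.14, adjusted p = 5.9e-10). Tlr7, a receptor of single-stranded RNA, had 3.1, 2.64 and 2.15 and 43.9, 45.2 and 43.4 CPM (log2 difference 4.07, SE 0.11, adjusted p = 2.6e-11). Clec5a, an activating lectin of myeloid cells, had 46.9, 34.6 and 34.9 and 529.7, 502 and 519.6 CPM (log2 difference 3.74, SE 0.12, adjusted p = 7.5e-11), again with no overlap. Tlr2 and Clec7a, the beta-glucan receptor, rose by 1.32 and 2.08. The member that fell was Fpr2, a formyl peptide receptor of mature neutrophils (-1.94).

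Most monocyte genes rose as well, although Irf8 and Csf1r were lower. Of 22 tested, 15 were higher and 4 lower (median 1.98). Ly6c2, a surface marker of monocytes and of myeloid progenitors, had 558, 449 and 519 CPM in HPC and 5798, 5656 and 6017 CPM in LP (log2 difference 3.52, SE 0.1003, adjusted p = 3.8e-11). Vcan, the proteoglycan versican, had 1.13, 1.13 and 0.546 and 289, 334 and 402 CPM (log2 difference 8.52, SE 0.23, adjusted p = 2.6e-11), and F13a1 had 207, 173 and 157 and 1282, 1170.3 and 1509.7 CPM (log2 difference 2.88, SE 0.12, adjusted p = 8.5e-10). Lyz2 rose by 2.06 and Ccr2, the receptor by which monocytes leave marrow, by 1.56. In contrast, Csf1r, the receptor of the macrophage growth factor, had 64.3, 53.8 and 55.7 and 20.4, 19.998 and 24.6 CPM (log2 difference -1.42, SE 0.11, adjusted p = 2.1e-07), and Ms4a6c fell by 2.6. C3, the complement component, which lies outside the list, rose by 2.21.

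**Figure D4:**
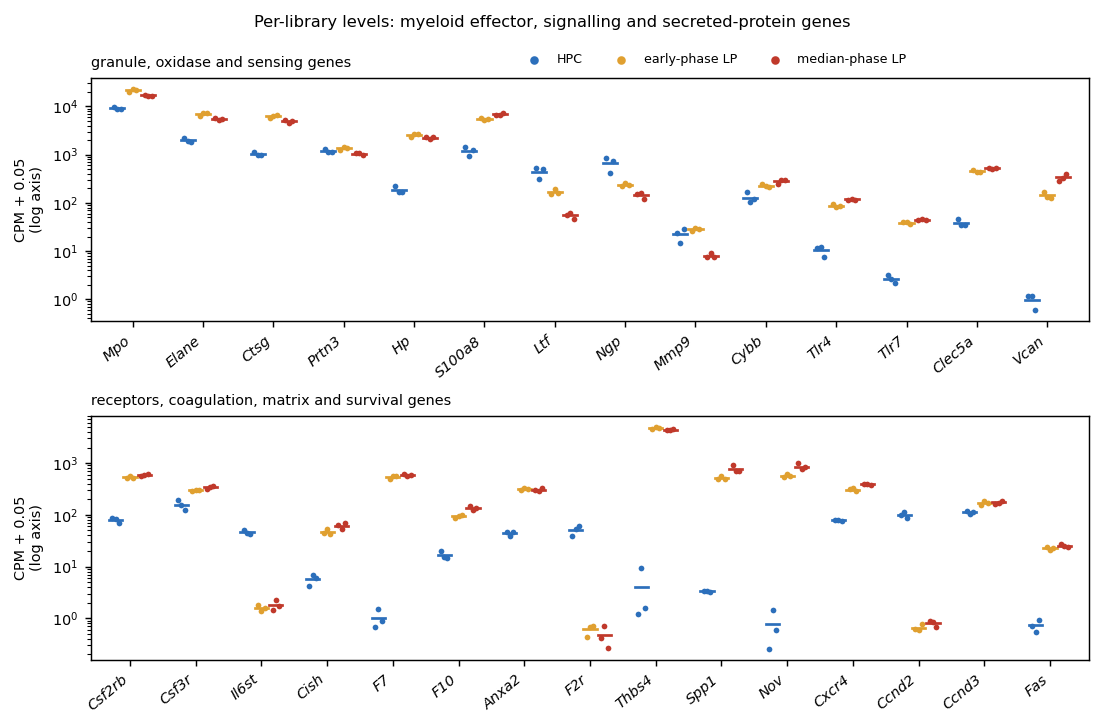
CPM of granule, oxidase and sensing genes (top) and of receptor, coagulation, matrix, cell cycle and survival genes (bottom) in each library of HPC (blue), early-phase LP (orange) and median-phase LP (red), on a log axis after 0.05 was added; points are libraries and short bars the mean of 3. Ctsg, Tlr4, Vcan, F7 and Thbs4 are higher in all LP libraries, Ltf and Mmp9 are lower in median-phase LP than in the other groups, and Ccnd2 is below 1 CPM in all LP libraries.

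Growth factor and cytokine receptors moved in both directions. Among 28 tested, 13 were higher and 13 lower (median 0.01). Csf2rb, the beta chain shared by the receptors for GM-CSF, interleukin 3 and interleukin 5, had 86.6, 81.9 and 69.3 CPM in HPC and 559, 591 and 618 CPM in LP (log2 difference 2.89, SE 0.09, adjusted p = 8.1e-11). Csf2rb2, the beta chain specific to interleukin 3 in mice, rose by 2.12, and the alpha chains Csf2ra and Il3ra by 1.76 and 1.62. Csf3r, the G-CSF receptor, had 193, 157 and 123 and 321, 349.5 and 359.9 CPM (log2 difference 1.12, SE 0.13, adjusted p = 7.3e-06). Every LP library was above every HPC library for these genes. Il6st, the gp130 chain through which interleukin 6 signals, had 51.1, 45.2 and 42.4 CPM in HPC and 1.37, 2.24 and 1.71 CPM in LP (log2 difference -4.7, SE 0.15, adjusted p = 9.8e-11), while Il6ra did not pass the test (adjusted p = 0.65), at 43.5, 41.1 and 35 CPM in HPC and 34.3, 44.6 and 45.9 CPM in LP.

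Of 27 tested STAT and MAPK genes and their feedback regulators, 10 were higher and 10 lower. Cish, a target and inhibitor of STAT5 signalling, had 4.19, 6.74 and 6.01 CPM in HPC and 63.1, 53.8 and 68.3 CPM in LP (log2 difference 3.45, SE 0.15, adjusted p = 1.6e-09). Socs2 had 2.98, 3.43 and 3.59 and 16.6, 14.9 and 15.4 CPM (log2 difference 2.23, SE 0.11, adjusted p = 3.9e-09). Stat5a, one of the STAT5 transcription factors, had 133, 138 and 155 and 65.7, 63.1 and 60.8 CPM (log2 difference -1.17, SE 0.07, adjusted p = 3.4e-08), with LP libraries all lower. Lyn, a Src family kinase, rose by 1.43, and Dusp6, a phosphatase that limits ERK, did not pass the test (0.24, adjusted p = 0.16), though it was called higher without LP library 3. Among 23 tested cytokines and chemokines, 14 were higher and 4 lower (median 0.92), or 7 lower without LP library 1. By at least 2-fold, 10 were higher and 3 lower, and the members given here are among those that rose. Il3, which encodes interleukin 3 and is normally made by T and mast cells, had no count in any HPC library and 7.03, 6.59 and 4.44 CPM in LP, at least 158-fold higher against a floor of 3 fragments over the HPC. Tnf had 6.21, 4.27 and 5.85 and 16.9, 15.6 and 11 CPM (log2 difference 1.42, SE 0.18, adjusted p = 1.6e-05). Cxcl10, an interferon-induced chemokine named after its values had been seen, had 0.713, 0.377 and 0.741 CPM in HPC and 115, 73 and 50.3 CPM in LP (log2 difference 7.004, SE 0.36, adjusted p = 5.7e-09), and Csf1 rose by 0.92.

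Of 14 tested coagulation and fibrinolysis genes, 10 were higher and 3 lower (median 1.15). F7, the coagulation factor that tissue factor activates and that the liver makes in normal animals, had 0.629, 1.47 and 0.819 CPM in HPC and 619.95, 573 and 586 CPM in LP (log2 difference 9.25, SE 0.19, adjusted p = 4.7e-12). F10 and F5, the enzyme and cofactor that make thrombin, and Thbd, the thrombin receptor thrombomodulin, were named after their values had been seen and rose by 3.04, 2.43 and 2.72. Tissue factor itself, F3, was below the filter. Anxa2, the annexin that binds plasminogen on the surface of promyelocytic leukemia cells, had 46, 38.4 and 47.4 CPM in HPC and 306, 288 and 324 CPM in LP (log2 difference 2.8, SE 0.09, adjusted p = 9.7e-11). Its binding partner S100a10 had 42.4, 47.4 and 63.6 and 37.1, 33.1 and 33.9 CPM and was lower (log2 difference -0.56, SE 0.12, adjusted p = 0.0015), by less when HPC library 3, the highest, was left out (log2 difference -0.37). Plau, urokinase, rose by 0.76 and Serpine2, an inhibitor of it and of thrombin, by 2.7, whereas Plaur, the urokinase receptor, fell by 1.57 and F2r, the thrombin receptor, had 38.5, 52.3 and 60.2 and 0.372, 0.659 and 0.22 CPM (log2 difference -6.9, SE 0.27, adjusted p = 4.8e-10).

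Secreted matrix proteins gave some of the largest increases of the comparison. Of 15 tested matrix genes, 10 were higher and 4 lower (median 2.39), and the list summed to 70.2 to 86.0 CPM in HPC and 6437 to 6759 CPM in LP. Thbs4, thrombospondin 4, had 1.17, 9.34 and 1.56 CPM in HPC and 4376, 4389.8 and 4564 CPM in LP (log2 difference 10.12, SE 0.65, adjusted p = 4.1e-08). Nov, of the CCN family, had 0.21, 1.38 and 0.546 and 992, 758 and 825 CPM (log2 difference 10.23, SE 0.31, adjusted p = 6.8e-11). HPC library 2 was the highest of its group for both genes, and every LP library was far above it. Spp1, osteopontin, had 3.36, 3.35 and 3.12 and 939, 711 and 689.9 CPM (log2 difference 7.89, SE 0.15, adjusted p = 3.3e-12), and Fst, follistatin, the activin inhibitor, had 0.0839, 0.0837 and 0.117 and 153, 131 and 123 CPM (log2 difference 10.4, SE 0.16, adjusted p = 7.7e-13). Fn1, fibronectin, rose by 5.14, and the membrane metalloprotease Mmp14 fell by 6.31. Of 11 tested stromal and endothelial markers, 6 were higher and 5 lower, and the list summed to 139 to 147 CPM in HPC and 125 to 136 CPM in LP. By at least 2-fold, 5 were higher and 5 lower, and those given by library below are among the members that rose. Acta2, smooth muscle actin, named by its small adjusted p, had 0.0839, 0.0837 and 0.039 CPM in HPC and 26.1, 26.1 and 36.1 CPM in LP (log2 difference 8.65, SE 0.29, adjusted p = 1.6e-10). Col1a1, a chain of collagen I and a key gene of the list, had 0.0839, 0.126 and 0.195 and 3.1, 2.77 and 2.2 CPM (log2 difference 4.25, SE 0.33, adjusted p = 2.7e-07). The list and its key genes were chosen with earlier results of these data known. Cxcl12, Cdh5 and Pdgfra, defining markers of marrow stroma and endothelium, were below the filter, Cdh5 being higher in LP by a ratio of 8.57-fold with an exact 95% counting interval of 2.01 to 76.8. The part of admixed stroma in the matrix values was not tested.

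Adhesion genes moved in both directions, 11 higher and 13 lower of 25 tested (median -0.24). Cxcr4, the receptor that holds progenitors in marrow, had 80.8, 77.8 and 74.8 CPM in HPC and 395, 386 and 376 CPM in LP (log2 difference 2.31, SE 0.07, adjusted p = 9.2e-11). Ncam1, a neural adhesion molecule, rose by 2.74. Itga4, the VLA-4 alpha chain, had 232, 208 and 199.8 and 136, 146 and 143 CPM (log2 difference -0.59, SE 0.07, adjusted p = 1.4e-05), and Alcam fell by 5.49. Cd44 did not pass the test, at 193, 192 and 164 CPM in HPC and 181, 161 and 169.7 CPM in LP (adjusted p = 0.27), but was called lower without HPC library 3, with library totals and by limma on log2(FPKM + 1) and log2(FPKM + 0.1).

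Among DNA replication and mitosis genes, Tk1 alone was called with a change of at least 2-fold, and the D cyclins moved in opposite directions. Of 31 DNA replication genes, 21 were lower and 5 higher (median -0.32), most by less than 2-fold. Mcm2, of the replicative helicase, had 399.7, 384 and 412 and 259, 273 and 281 CPM (log2 difference -0.56, SE 0.06, adjusted p = 8.4e-06), Tk1, thymidine kinase, had 82.6, 77.4 and 104 and 36.1, 33.9 and 33.7 CPM (log2 difference -1.35, SE 0.11, adjusted p = 3.1e-07), and Rrm2 had a log2 difference of -0.18, a call lost without LP library 2 or 3 or HPC library 1 or 2. Cdc45, the helicase activator, was higher (0.75). Of 30 mitosis genes, 13 were lower and 2 higher (median -0.10). Top2a fell by 0.56. Mki67, the proliferation marker Ki-67, had 839, 845 and 528 CPM in HPC and 729, 928 and 984 CPM in LP and did not pass the test, nor did Cdk1 and Ccnb1 (log2 differences 0.26, 0.03 and -0.08, adjusted p = 0.21, 0.71 and 0.33); Ccnb1 was called lower with library totals.

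The D cyclins, which start the cycle in response to growth factors, were read per transcript length, in FPKM. Ccnd3 was the highest of the 3 in both groups, with 63.8 ± 4.14 FPKM in HPC and 95.6 ± 5.8 in LP (mean ± SD, n = 3). Ccnd2 had 15.9 ± 1.5 and 0.107 ± 0.0182 FPKM, and Ccnd1 1.27 ± 0.0721 and 0.107 ± 0.0321 FPKM. Ccnd2 therefore gave 18.1 to 22.4% of D cyclin FPKM in HPC libraries and 0.0854 to 0.128% in LP libraries. In CPM, Ccnd2 fell from 101, 114 and 88.4 to 0.828, 0.791 and 0.615 (log2 difference -7.07, SE 0.15, adjusted p = 4.7e-12) and Ccnd3 rose from 119, 105 and 111 to 162, 168 and 189 (log2 difference 0.63, SE 0.09, adjusted p = 3.3e-05). Ccne1, the cyclin of S phase entry, fell by 1.71. Cdk6 was called higher (0.71, adjusted p = 0.021), a call that was lost with library totals and without LP library 2 or 3 or HPC library 3, with adjusted p up to 0.0785. Among inhibitors, Cdkn1a, which encodes p21, had 8.72, 8.12 and 9.01 CPM in HPC and 78.9, 66.9 and 75.1 CPM in LP (log2 difference 3.09, SE 0.09, adjusted p = 4.4e-11), and Cdkn1c rose by 2.28. Cdkn2a, the locus of p16 and p19ARF, named after its values had been seen, had no count in HPC and 2.69, 2.94 and 3.69 CPM in LP, at least 82.1-fold higher.

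Of 25 tested p53 pathway genes, 12 were higher and 6 lower (median 0.34). Trp53 itself had 228, 218 and 247 CPM in HPC and 141, 142 and 133 CPM in LP (log2 difference -0.74, SE 0.07, adjusted p = 1.1e-06). Fas, the death receptor, had 0.671, 0.502 and 0.858 and 27.4, 25.4 and 23.4 CPM (log2 difference 5.21, SE 0.15, adjusted p = 4.8e-11), and Bbc3, which encodes PUMA, rose by 1.34. Mdm2, the ligase that degrades p53 and a p53 target, did not pass the test, at 74.6, 72.7 and 63.1 and 77.6, 75 and 78.4 CPM (adjusted p = 0.11), but was called higher without HPC library 1. Of 18 BCL2 family genes, 12 were higher and 4 lower (median 0.85). Bcl2, the founding survival protein, had 52, 51.7 and 41.8 CPM in HPC and 11, 12.4 and 11.9 CPM in LP (log2 difference -2.04, SE 0.0999, adjusted p = 3.7e-09). The survival proteins Bcl2l2, Bcl2l1 and Mcl1 were higher, with log2 differences of 1.62, 0.73 and 0.38, as was Bcl2l11, the death activator BIM (0.45).

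Most genes of the endoplasmic reticulum stress response rose. Cells that secrete or store much protein fold it with chaperones of the reticulum, and unfolded protein raises these chaperones through ATF6 and XBP1 and the amino acid response through ATF4. Of 29 tested genes, 24 were higher and 2 lower, or 4 lower without LP library 1 (median 1.30), and the list summed to 4019 to 4797 CPM in HPC and 10814 to 11359 CPM in LP. Hspa5, the chaperone BiP, had 1201, 1216 and 980.4 CPM in HPC and 3231, 3105 and 3338 CPM in LP (log2 difference 1.51, SE 0.09, adjusted p = 3.4e-08). Xbp1 had 135, 127 and 114 and 454, 385 and 366 CPM (log2 difference 1.68, SE 0.09, adjusted p = 1.1e-08), and Atf4 had 229.5, 185 and 220.4 and 510.3, 499 and 559 CPM (log2 difference 1.3, SE 0.0998, adjusted p = 2.1e-07). LP libraries were all above HPC libraries for the 3 genes. Derl3, of the channel that removes misfolded protein, had 0.839, 0.628 and 0.897 and 43.4, 48.7 and 57.1 CPM (log2 difference 5.97, SE 0.15, adjusted p = 1.7e-11). Calr, the chaperone calreticulin, and Atf5 rose by 1.4 and 2.73. Ddit3, which encodes CHOP, moved less (0.39, adjusted p = 0.0096) and lost its call with library totals in place of TMM (adjusted p = 0.052). Ppp1r15a, which ends the translation block of this response, had 81.4, 51.2 and 77.9 and 30.6, 37.4 and 25.6 CPM and was lower (log2 difference -1.17, SE 0.201, adjusted p = 2.3e-04).

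The ER stress response element, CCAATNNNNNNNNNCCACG on either strand, was sought in the promoters because it is a known element of this response. It was found in 6 of 27 promoters of the list, against 20 of the 10211 promoters of tested genes (0.196%), which include these 6. Among genes called higher, 14 of 3569 promoters held it (0.392%), and among those called lower, 3 of 3937 (0.0762%). Since the element was chosen as one known from this response, its share in the list tests nothing here. A match does not show binding. The 2 examples are RefSeq's on GRCm38.p6, over the same window as above, with the element in capitals.
Hspa5: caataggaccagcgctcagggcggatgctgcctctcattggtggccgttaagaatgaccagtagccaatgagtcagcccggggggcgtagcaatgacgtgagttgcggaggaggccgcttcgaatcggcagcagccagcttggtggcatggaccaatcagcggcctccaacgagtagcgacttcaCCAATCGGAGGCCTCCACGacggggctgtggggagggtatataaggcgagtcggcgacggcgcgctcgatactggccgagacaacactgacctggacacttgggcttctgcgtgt
Derl3: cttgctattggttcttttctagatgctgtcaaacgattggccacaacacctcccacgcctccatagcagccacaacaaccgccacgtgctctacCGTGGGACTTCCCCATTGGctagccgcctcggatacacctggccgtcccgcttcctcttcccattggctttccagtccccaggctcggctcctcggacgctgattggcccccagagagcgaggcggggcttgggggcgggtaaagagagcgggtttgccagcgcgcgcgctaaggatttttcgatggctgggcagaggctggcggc
They lie at chr2:34771840-34772139, plus strand (Hspa5) and chr10:75893148-75893447, plus strand (Derl3). Hspa5 holds the element on the strand of the gene and Derl3 on the opposite strand.

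Most glycolysis genes were higher and most respiratory chain genes lower. Of 29 glycolysis and hypoxia genes, 20 were higher and 5 lower (median 1.08). Slc16a3, the lactate exporter MCT4, had 15.8, 11.3 and 13.1 CPM in HPC and 139, 127 and 118 CPM in LP (log2 difference 3.25, SE 0.11, adjusted p = 1.8e-10). Slc2a1, the glucose transporter GLUT1, rose by 1.83 and Hk2, hexokinase 2, by 1.42. Isozymes of phosphofructokinase went in opposite directions: Pfkp had 61.6, 57.9 and 52.4 and 227, 221 and 214 CPM (log2 difference 1.94, SE 0.07, adjusted p = 3.8e-10), and Pfkm had 96.8, 105 and 112 and 13.5, 13.3 and 14.4 CPM (log2 difference -2.93, SE 0.08, adjusted p = 2.3e-11). Slc2a3, the transporter GLUT3, fell by 3.15. Ldha, lactate dehydrogenase A, did not pass the test, at 636, 674 and 806 CPM in HPC and 723, 653 and 647 CPM in LP (adjusted p = 0.55). Of 31 respiratory chain genes, 23 were lower and 2 higher (median -0.46; 0 higher without HPC library 2 and 5 without HPC library 3), all by less than 2-fold except Atp5a1, of the ATP synthase, which had 1217, 1228 and 1419.7 and 457, 429.9 and 427 CPM (log2 difference -1.56, SE 0.08, adjusted p = 4.4e-09). Sdha, of succinate dehydrogenase, fell by 0.78.

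Of 25 cholesterol and fatty acid genes, 18 were higher and 4 lower (median 0.80). A change of at least 2-fold was reached by 11 of those higher and by all 4 of those lower. The members given here rose and belong to the cholesterol part of the list. Srebf2, the factor that induces the pathway, rose by 1.26. Insig1, which holds that factor's precursor in the endoplasmic reticulum, had 28.1, 23.6 and 25.4 CPM in HPC and 94.5, 92.6 and 93.8 CPM in LP (log2 difference 1.87, SE 0.07, adjusted p = 4.6e-10). Cyp51, the lanosterol demethylase, had 30.8, 26.5 and 27.3 and 103, 95.2 and 106 CPM (log2 difference 1.85, SE 0.07, adjusted p = 6.5e-10). This list was also higher than in early-phase LP, with 11 of 25 members called higher and none lower, beside 1.48% of all tested genes.

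**Figure D5:**
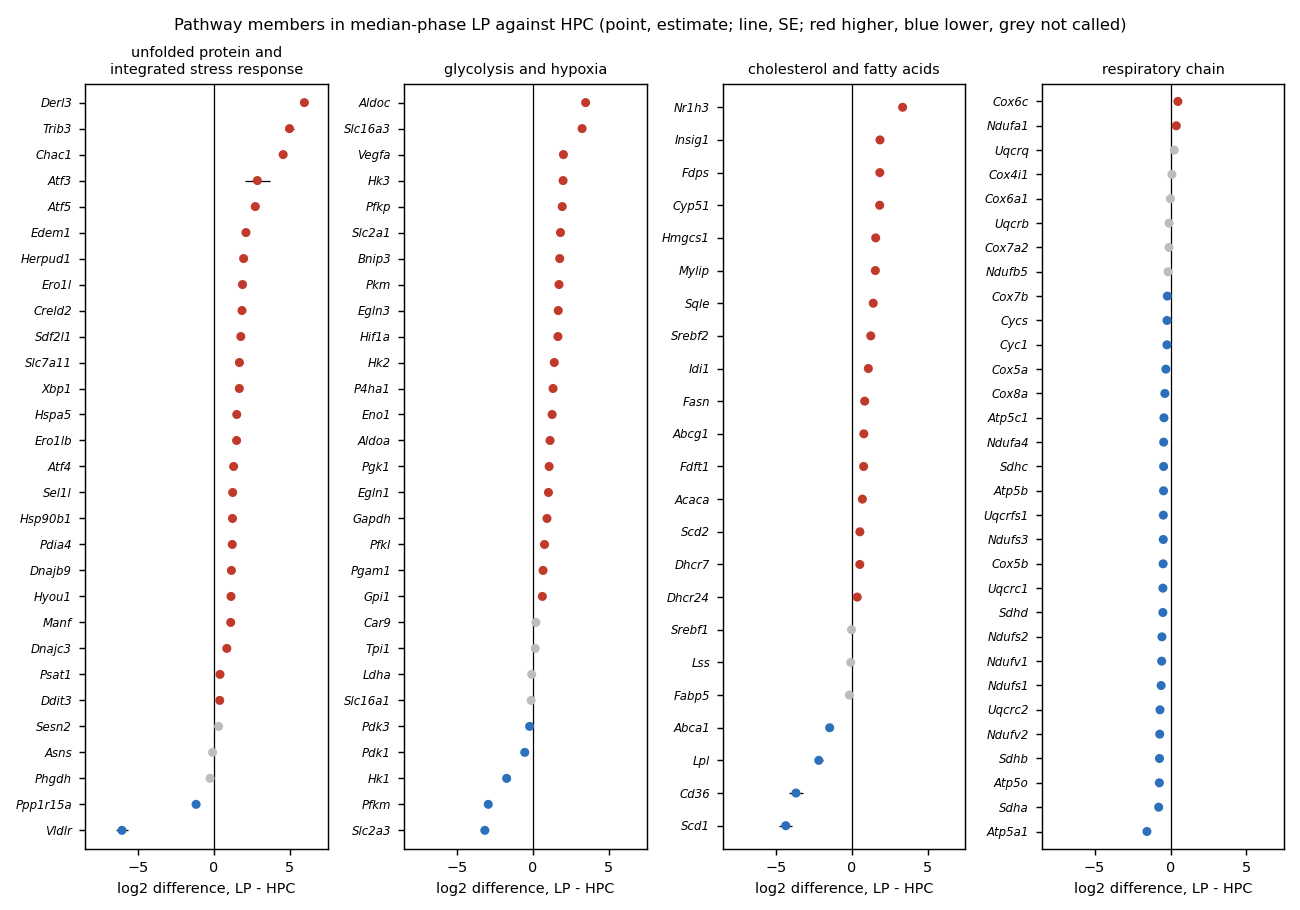
Log2 difference of the tested members of 4 lists, the cholesterol list without 2 of its 25, between median-phase LP and HPC, with its SE as a horizontal line; red points passed the test as higher, blue as lower and grey did not pass. Stress response, glycolysis and cholesterol genes lie mostly to the right of 0, and respiratory chain genes lie mostly to the left, within about 1 log2 unit of 0 except Atp5a1.

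Nucleolar and ribosome biogenesis genes were lower, 24 of 30 with 4 higher (median -0.59). Npm1, nucleophosmin, had 2208, 2233 and 2445 CPM in HPC and 1477, 1279 and 1220.2 CPM in LP (log2 difference -0.79, SE 0.09, adjusted p = 8.4e-06), and Ncl, nucleolin, fell by 0.47. Dkc1, of the enzyme that modifies ribosomal RNA, went the other way (1.02). Myc, which drives this programme, had 338, 372 and 348 and 343, 304 and 258 CPM and did not pass the test (adjusted p = 0.055), but was called lower by DESeq2's Wald test, with library totals, with the replicate number as a block and without LP library 1.

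Chromatin genes included very large changes of single members. Of 33 tested, 8 were higher and 16 lower (median -0.29). Kdm6a, the X-linked demethylase of lysine 27 of histone H3, had 88.8, 87.1 and 75.8 CPM in HPC and 3.64, 4.44 and 3.3 CPM in LP (log2 difference -4.47, SE 0.11, adjusted p = 1.5e-11). Sin3a, the scaffold of a histone deacetylase complex, had 135, 148 and 126 and 1186, 1308 and 1392 CPM (log2 difference 3.25, SE 0.09, adjusted p = 2.7e-11), and Hdac9, a class II deacetylase, had 5.49, 4.23 and 4.49 and 74.2, 72.3 and 63.1 CPM (log2 difference 3.88, SE 0.11, adjusted p = 2.7e-11). No HPC library overlapped an LP library for the 3 genes, and early-phase LP lay beside median-phase LP, at 4.4, 4.47 and 4.12 CPM for Kdm6a and 1108, 1021 and 1069.6 CPM for Sin3a. Dnmt3a, the DNA methyltransferase, had 80.4, 82.1 and 69.7 and 22.4, 26.3 and 27.5 CPM (log2 difference -1.61, SE 0.09, adjusted p = 1.2e-08), and Tet2, which oxidizes methylcytosine, rose by 1.01. The Polycomb genes Ezh2 and Cbx2 had log2 differences of -0.87 and -6.54, and Bmi1 did not pass the test (0.097, adjusted p = 0.19). Of the corepressors that bind PML-RAR, Hdac3 was lower (-0.399) and Ncor1 was called higher (0.42, adjusted p = 0.036), a call lost with library totals and without LP library 2 or 3 or HPC library 3, and its log2 difference without HPC library 3 was 0.26.

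Germ line genes and imprinted genes included some of the widest differences. Of 11 tested germ line genes, 7 were higher and 4 lower (median 2.35). Tdrd9, a helicase of the piRNA pathway, had 0.294, 0.461 and 0.39 CPM in HPC and 93.5, 93.5 and 93.1 CPM in LP (log2 difference 7.91, SE 0.11, adjusted p = 6.1e-13). Morc1 had 0, 0.126 and 0 and 70.8, 63.3 and 62.8 CPM, a ratio of 1732-fold with an exact 95% counting interval of 592 to 8401, and Tex19.1 0, 0.0419 and 0 and 21.1, 22.1 and 19.2 CPM, a ratio of 1640.3-fold with an exact 95% counting interval of 294 to 64828. Ddx4, the germ cell helicase Vasa, fell by 4.93, and Rec8, the meiotic cohesin, by a ratio of 298-fold with an exact 95% counting interval of 53.1 to 11805, so the list did not rise as a whole. Of 12 tested imprinted genes, 3 were higher and 7 lower (median -6.59). Grb10, an adaptor that restrains insulin and Kit signalling, had 75.4, 82.3 and 62.2 CPM in HPC and 0.0828, 0.044 and 0 CPM in LP, lower by a ratio of 1791-fold with an exact 95% counting interval of 613 to 8688. Igf2r, the receptor that clears IGF2, had 38.6, 37.6 and 29.95 and 0.455, 0.703 and 0.659 CPM (log2 difference -5.86, SE 0.18, adjusted p = 6.3e-11), and Plagl1, a zinc finger protein, rose by 3.9.

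Antigen presentation and immune regulation genes were mixed. Of 20 MHC class I presentation genes, 10 were higher and 4 lower (median 0.18). B2m, the light chain, had 901, 888 and 972 CPM in HPC and 1927, 1977 and 1953 CPM in LP (log2 difference 1.08, SE 0.07, adjusted p = 7.3e-08), the heavy chains H2-K1 and H2-D1 rose by 0.99 and 1.31, and the peptide transporter Tap1 passed the test only without HPC library 3 (0.103, adjusted p = 0.33 with all libraries). The heavy chain genes have near-identical relatives, so their counts are uncertain. Of 32 interferon response genes, 15 were higher and 13 lower (median 0.19). Ifit2 and Gbp3 rose by 2.03 and 2.04, and Irf7 was called lower (-0.58, adjusted p = 0.036), a call lost with only the groups compared and in 4 of the 6 fits that left out a library.

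Of 20 checkpoint and adenosine genes, 9 were higher and 9 lower (median -0.37). Nt5e, CD73, the enzyme that makes adenosine from AMP, had 1.01, 1.47 and 1.17 CPM in HPC and 250.3, 242 and 263 CPM in LP (log2 difference 7.69, SE 0.11, adjusted p = 6.9e-13). Adora2b, an adenosine receptor, had 0.168, 0.209 and 0.273 and 7.57, 5.89 and 4.97 CPM (log2 difference 4.79, SE 0.27, adjusted p = 1.5e-08). Entpd1, CD39, the enzyme that supplies AMP, had 4.19, 4.98 and 5.42 and 2.36, 2.07 and 2.33 CPM and was lower (log2 difference -1.11, SE 0.17, adjusted p = 9.1e-05). Nt5e and Adora2b were thus high and Entpd1 low in every LP library. Cd274, PD-L1, and Cd47, the signal against phagocytosis, rose by 1.41 and 0.39, and Lgals9, galectin 9, fell by 2.6.

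Immediate early genes, which stimuli and tissue handling induce within minutes, did not move as a set, with 9 higher and 8 lower of 22 tested (median -0.05). By at least 2-fold, 8 were higher and 6 lower, and the 3 genes given here are among those that fell. Fos had 354, 141 and 252 CPM in HPC and 38.9, 35.5 and 28.4 CPM in LP (log2 difference -2.86, SE 0.29, adjusted p = 2.7e-06), Jun 407, 205 and 320.2 and 57.4, 48 and 15.4 CPM (log2 difference -2.95, SE 0.401, adjusted p = 3.3e-05), and Dusp1 108, 41.7 and 75.8 and 9.19, 8.35 and 4.62 CPM (log2 difference -3.35, SE 0.37, adjusted p = 5.2e-06). HPC library 2 was the lowest of its group for the 3 genes, LP library 3 was the lowest of all, and median-phase LP was also lower than early-phase LP, at 133, 113 and 179 CPM for Fos. The part of handling time in these values was not tested.

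Other named genes with very large changes belong to no list. Iqca had 0, 0.0419 and 0.039 CPM in HPC and 145, 140.2 and 138 CPM in LP, a ratio of 5164-fold with an exact 95% counting interval of 1542 to 46018. Csn2, beta casein, a milk protein gene that STAT5 induces in the mammary gland, had 0, 0.0837 and 0 and 119, 104 and 55.7 CPM, a ratio of 3674-fold with an exact 95% counting interval of 1017 to 30343. Steap2, a metalloreductase, had 0, 0.0837 and 0.039 and 105, 89.9 and 92.2 CPM, a ratio of 2524-fold with an exact 95% counting interval of 863 to 12243, and Clec3a rose by 10.01. At higher levels, Bzrap1 rose from 143 ± 34.3 to 1360.2 ± 103 CPM and Tmsb4x, thymosin beta 4, from 628 ± 76.1 to 3058 ± 79 CPM. Among decreases, Atp1b2, Sphk1, Shank3 and Mical3 had log2 differences of -9.37, -9.18, -9.19 and -9.33, and Aldh1a7 was lower by a ratio of 759-fold with an exact 95% counting interval of 265 to 3768. Mid1, an X-linked ubiquitin ligase, had 519, 426 and 735 CPM in HPC and 8.94, 12.4 and 9.54 CPM in LP (log2 difference -5.77, SE 0.21, adjusted p = 3.3e-10), and Ctse, an aspartic protease, fell by 3.14.

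By chromosome, the genes of chromosomes 8 and 15 had a median log2 difference of 0.51 each, and the other chromosomes -0.15 to -0.01. Of 706 tested genes on chromosome 8, 67.8% were higher, and of 498 on chromosome 15, 67.9%. Dosage of these chromosomes was not measured here. Of the tested genes named above, Klf1, Zfpm1, Irf8, Hp, Gsr, F7, F10, Calr and Clec3a lie on chromosome 8. Nfe2, Ly6c2, Csf2rb, Csf2rb2, Nov, Atf4, Pfkm, Srebf2, Myc, Rarg and Shank3 lie on chromosome 15.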

How the data were processed

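RNA of sorted bone marrow cells was sequenced in 9 libraries, 3 each of HPC, early-phase LP and median-phase LP. The deposited table lists 21388 RefSeq transcripts with an estimated count and an FPKM value per library, per the file headers. The authors aligned reads with TopHat2 2.0.6 to mm10, per the submitters' processing notes. The quantifier is not given in the sources used here, nor is its strand setting, so overlapping genes cannot be told apart. Each library's low estimated counts were multiples of a fixed step, and dividing by it recovered fragments, 22.98 to 26.93 M in the 6 libraries compared.

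Transcripts were summed to 16537 symbols. Rounded estimated counts were tested with edgeR 4.0.16 in R 4.3.3 (quasi-likelihood, TMM, filterByExpr, a single fit of all 9 libraries by group, without covariates), which kept 12837 genes and left out 3700, with a common biological coefficient of variation of 9.81%. The adjusted p is Benjamini-Hochberg's over all tested genes, two-sided, called under 0.05. SE are from the F statistic. Where a group held no fragment, a lower bound against 3 fragments over the group is given, and with 1 to 3 fragments a ratio with an exact 95% interval; both cover counting error only. The script was tested on simulated data. DESeq2 1.42.0 and limma 3.58.1 (log2(FPKM + 1)) served alternatives.

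The gene lists, their key genes and the comparison were chosen with earlier results of these data known. Genes named are the key genes of each list, up to 2 called members per list and direction with the smallest adjusted p, and per direction 12 abundant genes changed at least 4-fold and 12 largest changes at 20 CPM or more, both without overlap between groups and without predicted genes; others are said to be named after their values were seen. Some genes that the rule takes in are not reported here. Spi1 and Ly6g had no row matched here and were not analysed.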

Additional observations from a re-analysis of the deposited data

Results flagged for a closer look

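For 40 of the genes named above, the difference between LP and HPC was not the same in the median and the early phase by a direct test of median- against early-phase LP (edgeR's quasi-likelihood test, adjusted p under 0.05). Both differences share the HPC libraries, and the values below are the log2 level in median- minus early-phase LP with 3 libraries each. Of the 40 calls, 22 held whichever single library was left out. Leaving out 1 library lost between 8 calls (median-phase library 3) and 17 calls (early-phase library 2). The other 18 calls, each lost without at least 1 library, were those of Atf5, Atp1b2, Csf1, Cxcr4, Cyp51, Entpd1, F10, Fpr2, Fst, Ncf1, Nkg7, Pglyrp1, Pklr, Slc4a1, Spp1, Thbd, Tk1 and Tlr2. The replicate block lost 6 of the 40 calls, and limma lost 13 on log2(FPKM + 1) and 12 on log2(FPKM + 0.1).

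Of the red cell genes named, these were higher in the median phase: Hbb-b2 by 5.7 (adjusted p = 1.7e-06), Hba-a1 by 5.38, Alas2 by 4.85 and Slc4a1 by 4.39. Lower were Car1 at -1.87 and Pklr at -2.1, as were the progenitor genes Cd34 at -1.28 and Eng at -1.41, while Cd93 differed by 1.03.

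The granule genes Ltf, Mmp9, Pglyrp1 and Nkg7 were lower in the median phase, at -1.62, -1.84, -0.66 and -0.398, as was the receptor Fpr2 at -1.39. Myeloid genes that were higher were Vcan (1.26), Il1r2 (0.87), Tlr2 (0.56) and Ncf1 (0.48). Of the immediate early genes, those named were lower, Dusp1 at -2.67, Jun at -2.27 and Fos at -2.04.

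Also higher in the median phase were Csn2 by 1.97, Cxcl10 by 1.54, Csf1 by 1.48, Thbd by 0.85, Spp1 by 0.58, F10 by 0.54, Fst by 0.45 and Cxcr4 by 0.32. In the adenosine pathway Adora2b (1.23) and Nt5e (0.73) were higher and Entpd1 lower (-0.79).

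The cholesterol genes Insig1 and Cyp51 were higher by 0.53 and 0.43, and Atf5 of the stress response by 0.45. Cdkn1a was higher by 0.902 (adjusted p = 2.6e-04) and Tdrd9 by 0.46, whereas Tk1 (-0.52), Slc2a3 (-1.02) and Atp1b2 (-1.76) were lower.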

How the results depend on the processing

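Median-phase LP against HPC was recomputed under 16 alternatives, and the counts of genes higher (3826 to 4907) and lower (3944 to 5815) stayed within 1.5 times of 4624 and 4845 in all of them. Leaving out 1 library gave 4378 to 4700 higher and 4613 to 4885 lower. With library totals in place of TMM the median of all genes moved by -0.14 on the log2 scale, and the counts were 3933 and 5815. The fit on recovered fragments, an alternative chosen after the data had been seen, called 4628 and 4851. Deviations from the group mean had correlations of -0.14, -0.0082 and -0.054 between same-numbered libraries of the 2 groups, and of -0.177 to 0.218 between the others. No pairing by replicate number was thus seen, but deviations within groups of 3 libraries cannot exclude one. The replicate block gave 4534 genes higher and 4718 lower.

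Of 209 named genes called, 203 kept their direction and call under every alternative in which they were tested; the calls lost were those of Cdk6, Ddit3, Irf7, Ncor1, Nkg7 and Rrm2. No called gene reversed. On log2(FPKM + 1), 60 called genes had a log2 difference more than 1.5 times from the count-based one. The filter of 5 CPM moved 17 of 78 list counts by over 1.5 times, fewer genes being tested. Leaving out 1 library moved these by over 1.5 times: respiratory chain members higher (2 with all libraries) were 0 without HPC library 2, 1 without HPC library 1 or LP library 1 or 3, and 5 without HPC library 3; without LP library 1, cytokines lower went from 4 to 7 and stress response members lower from 2 to 4; dendritic cell members higher went from 2 to 1 without LP library 2 or 3 or HPC library 2 or 3, and primary granule members lower from 2 to 1 without LP library 3 or HPC library 1; basophil members higher went from 1 to 2 without HPC library 1, and innate receptors lower from 1 to 2 without LP library 2 or HPC library 2.

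Median- against early-phase LP depended more on the settings, with 190 genes higher and 128 lower. The genes higher were 325 by DESeq2's Wald test, 121 by limma on log2(FPKM + 0.1) and 362 with only the groups compared. The genes lower were 251 by DESeq2's Wald test, 75 with at least 5 CPM in 3 libraries, 62 with the replicate block and 243 with only the groups compared. Leaving out 1 library gave 66 to 133 higher and 39 to 77 lower; leaving out any early or median library reduced both counts by over 1.5 times, except median library 3, which gave 133 higher and 61 lower. The cause was not tested.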
